A study of Mus musculus and Ictidomys tridecemlineatus with 36 samples.

Results

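The regions described here were the 4744 Neurod1 peaks of P2 mouse retina, of 532904 peaks in the 10 peak lists of the series. They were chosen as the whole deposited list for this protein and species, with no cutoff on their values. Each peak is a stretch of the mouse genome (GRCm38) where CUT&RUN signal for Neurod1 exceeded the signal from a nonspecific IgG antibody. The study compared P2 mouse retina with P5 retina of 13LGS (the 13-lined ground squirrel, a cone-dominant rodent) in 36 libraries. Mouse Neurod1 was measured in 4 libraries, from 2 biological replicates with 2 technical replicates each, and mouse IgG in 2 libraries. A mouse replicate was a pool of snap-frozen retinas from 3 individuals, 385000 nuclei were used per reaction, and no strain, sex or genetic change is given in the labels. The retina at this age is a mixture of progenitors, photoreceptor precursors, and other neurons, and whole-tissue nuclei do not show in which of these cells a peak lay. Each peak has 1 fold value for all libraries, so no spread between replicates was available, and the read depth is unknown. Intervals given here are 95% Wilson intervals over peaks or genes and cover counting error only.

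Neurod1 is a basic helix-loop-helix transcription factor that drives neuronal differentiation. In the retina it is made in differentiating neurons and is known for its roles in photoreceptor and amacrine cell development and in photoreceptor survival. It binds DNA as a dimer with a ubiquitous bHLH partner at E-boxes, short words that begin with CA and end with TG, with a preference for central GA or GC. Otx2, a homeodomain factor needed for photoreceptor and bipolar cell fate, prefers TAATCC. In CUT&RUN, micrococcal nuclease tethered to the antibody releases the DNA around the bound site, so the read pileup surrounds the protein rather than marking a single base.

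Windows of 100 bp from 9 peaks are printed here because they hold the E-box word that set the Neurod1 peaks apart from other Otx2-bound regions. Capitals mark CAGATG or its reverse complement CATCTG, and all windows are read 5′ to 3′ on the plus strand of GRCm38, centred on the copy nearest the summit. The first 5 are from the peaks of highest fold, named by the nearest protein-coding gene start, at chr19:48755594-48755693 in a *Sorcs3* intron, chr14:24578652-24578751 between genes near *Rps24*, chr1:190872339-190872438 in an *Rps6kc1* intron, chr13:54322840-54322939 in an intron of *Gm48622* upstream of *Cplx2*, and chr2:152804555-152804654 in a *Bcl2l1* intron. The other 4 are from the peaks of highest fold near members of the neuronal gene lists, at chr14:48609108-48609207 between genes near *Otx2*, chr1:134063541-134063640 between genes near *Btg2*, chr17:15343318-15343417 between genes near *Dll1*, and chr6:124840419-124840518 in the *Gnb3* promoter.
Sorcs3: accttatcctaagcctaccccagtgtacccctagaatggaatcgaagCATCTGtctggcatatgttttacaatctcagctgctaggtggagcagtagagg
Rps24: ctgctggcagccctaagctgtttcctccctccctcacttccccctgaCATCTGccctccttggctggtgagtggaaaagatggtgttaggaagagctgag
Rps6kc1: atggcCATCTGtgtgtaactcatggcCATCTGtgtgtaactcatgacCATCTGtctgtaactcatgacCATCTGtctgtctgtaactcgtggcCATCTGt
Cplx2: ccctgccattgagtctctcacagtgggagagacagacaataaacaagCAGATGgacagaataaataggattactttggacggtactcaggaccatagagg
Bcl2l1: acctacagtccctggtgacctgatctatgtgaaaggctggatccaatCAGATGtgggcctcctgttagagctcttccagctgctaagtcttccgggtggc
Otx2: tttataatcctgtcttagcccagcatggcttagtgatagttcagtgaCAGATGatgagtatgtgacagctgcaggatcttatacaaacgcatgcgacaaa
Btg2: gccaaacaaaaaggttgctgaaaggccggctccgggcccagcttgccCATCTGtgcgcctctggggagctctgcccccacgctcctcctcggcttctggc
Dll1: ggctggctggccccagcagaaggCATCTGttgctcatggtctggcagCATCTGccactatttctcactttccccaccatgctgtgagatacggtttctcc
Gnb3: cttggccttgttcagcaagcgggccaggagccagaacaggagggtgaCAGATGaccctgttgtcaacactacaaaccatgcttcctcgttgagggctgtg
The *Rps6kc1* window holds 5 copies in a tandem repeat and the *Dll1* window 2, while each of the other windows holds 1. Outside the repeat, the copy at the middle of the window lay 63 (*Dll1*) to 258 bp (*Gnb3*) from the summit. The *Cplx2*, *Otx2*, and *Gnb3* peaks had no copy within 150 bp of the summit. In the comparison below, which uses that distance, they count as lacking the word.

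Most Neurod1 peaks had modest fold and a small number stood far above the rest. The fold over IgG ran from 1.78 to 41.6 with a median of 3.78 and quartiles of 3.07 and 5.12. A fold of at least 10 was reached by 204 peaks (4.30%), of at least 20 by 27 peaks, and of at least 30 by 6 peaks. The −log10 q-value ran from 1.31 to 556 with a median of 8.504. The peaks were 196 to 5152 bp wide (median 418 bp) and together covered 2.33 Mb. The summit, the base of highest signal, lay a median of 74 bp from the middle of the peak.

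Neurod1 peaks lay mainly away from transcription start sites. A summit within 1 kb of an annotated start, called promoter here, was found for 1349 peaks (28.4%, interval 27.2% to 29.7%), while such positions made up 6.10% of the assembled genome. Introns held 1918 summits (40.4%, interval 39.0% to 41.8%), close to the 39.4% of the genome in this class. Intergenic sequence held 1300 summits (27.4%, interval 26.2% to 28.7%) against 51.2% of the genome. The remaining peaks lay in coding exons (59), 3′ UTRs (56), exons of non-coding transcripts (56), and 5′ UTRs (6). The median summit was 9376 bp from the nearest protein-coding start, and 88.5% of summits were within 100 kb of one. Median fold was 3.37 at promoters, 3.96 in introns, and 4.01 between genes.

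Most of the peaks lay in chromatin that carried a histone mark of regulatory elements in the same tissue. H3K4me3, the mark of active promoters, overlapped 1215 peaks (25.6%). H3K27ac, the mark of active elements, overlapped a further 1903 peaks that had no H3K4me3 (40.1%, interval 38.7% to 41.5%). H3K4me1 alone, found at poised enhancers, overlapped 1363 peaks (28.7%). The other 263 peaks (5.54%) touched none of these marks. By single positions, 7.04% of the summits lay outside the marks, against 92.1% of positions spaced along the genome. With a required overlap of 250 bp, 26.7% of the peaks were outside the marks, but peaks narrower than 250 bp cannot meet that rule. Median fold was 4.32 in the H3K27ac class, 3.78 with H3K4me1 alone, 3.31 at H3K4me3, and 3.31 outside the marks.

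Otx2 and Neurod1 shared most Neurod1 regions but only a minor part of the Otx2 regions. An Otx2 peak overlapped 3895 of the 4744 Neurod1 peaks (82.1%, interval 81.0% to 83.2%), and 3823 of the 29115 Otx2 peaks (13.1%) overlapped a Neurod1 peak. The Otx2 list pooled 8 libraries made with 2 antibodies and the Neurod1 list 4 libraries made with 1, and these shares depend on the lengths of the lists. Both lists were called against the same IgG libraries, so their positions are not independent measurements. In the shared regions the summits of both factors were a median of 66 bp apart, and 69.4% were within 150 bp. Otx2 peaks with Neurod1 had a median Otx2 fold of 5.00, against 3.42 for those without. Of the H3K4me3, H3K27ac, and H3K4me1 peaks, 8.20%, 3.90%, and 2.82% held a Neurod1 peak.

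To find what distinguished the Neurod1 regions, they were compared with the 25292 Otx2 peaks that had no Neurod1 peak, by two-sided Fisher's exact tests over peaks with Benjamini-Hochberg adjustment over 11 shares. Regions, not animals, were the unit, so these p-values do not measure variation between retinas. Neurod1 regions were less often at promoters (28.4% against 46.5%, a difference of -18.1 points, Fisher adjusted p = 2.68e-121) and more often in introns (40.4% against 27.2%, 13.3 points, Fisher adjusted p = 4.32e-72). Among peaks without H3K4me3, these differences were -1.31 points (Fisher adjusted p = 0.0392) and 5.56 points (Fisher adjusted p = 4.84e-09). They overlapped H3K4me3 less often (25.6% against 45.2%, -19.6 points, Fisher adjusted p = 4.90e-145) and were more often in the class with H3K27ac and no H3K4me3 (40.1% against 19.5%, 20.6 points, Fisher adjusted p = 4.04e-191). Regions outside the marks were less frequent (5.54% against 8.03%, -2.48 points, Fisher adjusted p = 1.16e-09). With a required overlap of 250 bp this difference turned to 4.75 points. Peaks narrower than 250 bp cannot meet that rule and are outside by definition, so no conclusion is drawn from that sign. The lower quartile of width was 262 bp for Neurod1 peaks and 351 bp for all Otx2 peaks. Neurod1 peaks were the narrower set, with a median of 418 bp against 527 bp, and the part of width in the overlap shares was not tested. The sets were not matched for fold either. Otx2 peaks without Neurod1 had a median Otx2 fold of 3.42, against 5.00 for those with it. Among the Neurod1 peaks such shares changed with fold, as given below, and the part of fold in these differences was not tested. Intergenic summits were more frequent (27.4% against 23.7%, 3.75 points, Fisher adjusted p = 5.04e-08), but among peaks without H3K4me3 the difference was -4.88 points. The class with H3K4me1 alone differed by 1.44 points (28.7% against 27.3%, Fisher adjusted p = 0.0434), which became 1.31 points (Fisher adjusted p = 0.067) without the peaks in the gene *Gse1* and -11.2 points among peaks without H3K4me3.

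**Figure D1:**
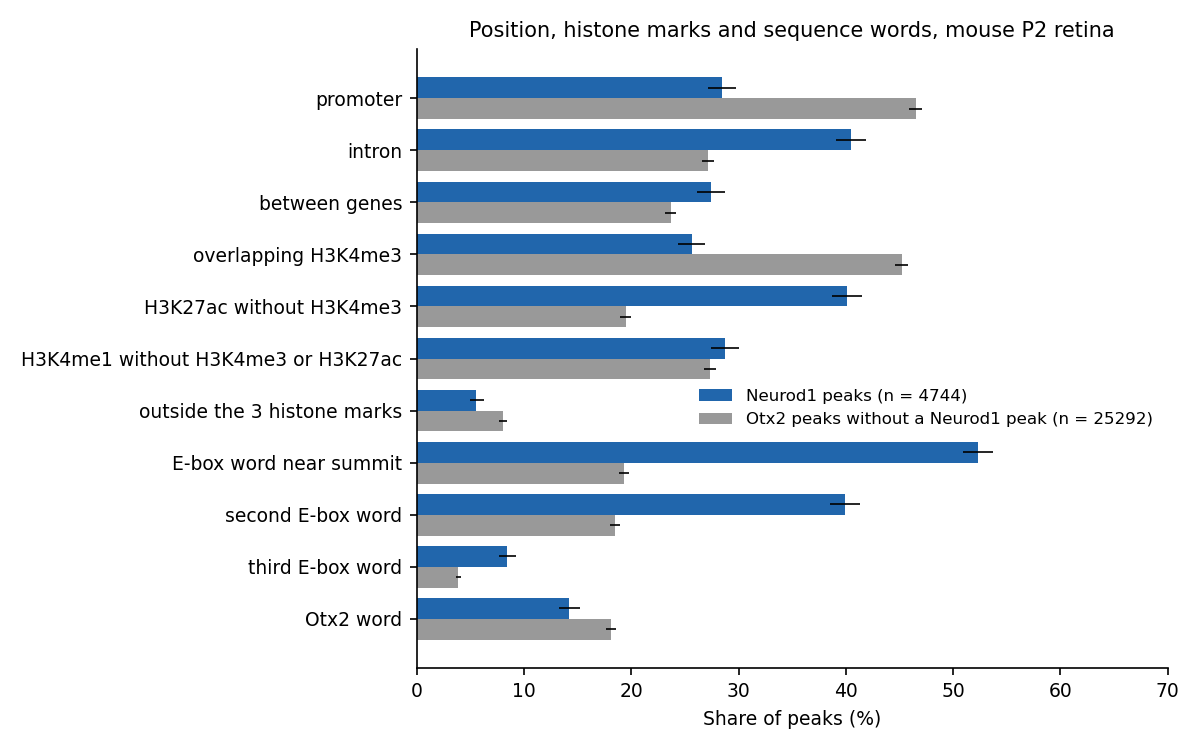
Share of peaks (percent) in each position class, histone mark class, and with each sequence word within 150 bp of the summit, for 4744 Neurod1 peaks and 25292 Otx2 peaks without a Neurod1 peak; black lines are 95% Wilson intervals. The E-box word is CAGATG, the second is CAGCTG, the third is CATATG, and the Otx2 word is TAATCC. The widest gap is in CAGATG, at 52.3% against 19.3%.

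CAGATG and CAGCTG were more frequent in the Neurod1 regions than in the Otx2 regions, and CAGATG gave the largest of the 11 differences at the thresholds used here. Each word was searched on both strands within 150 bp of the summit, a window of 301 bp. CAGATG was found in 2481 Neurod1 windows (52.3%, interval 50.9% to 53.7%), in 22.7% of windows placed 1 kb to either side, in 19.3% of the windows of Otx2 peaks without Neurod1, and in 17.2% of the 32851 RefSeq promoters of 300 bp. The difference from the Otx2 regions was 33.0 points, and its Fisher p was too small for double precision. CAGCTG was in 39.9% of Neurod1 windows against 15.9% at 1 kb, 18.5% in the Otx2 regions (21.4 points, Fisher adjusted p = 2.22e-209), and 16.3% of the promoters. CATATG was in 8.43% against 6.71%, 3.89% (4.55 points, Fisher adjusted p = 2.53e-36), and 3.91%. TAATCC was less frequent than in the Otx2 regions, at 14.2% against 18.1% (-3.90 points, Fisher adjusted p = 5.47e-11), with 11.4% at 1 kb and 7.06% in promoters. Within 50 bp of the summit, the differences were 3.13 points for CAGATG (Fisher adjusted p = 1.48e-13), 2.67 points for CAGCTG (Fisher adjusted p = 3.04e-11), 0.40 points for CATATG (Fisher adjusted p = 0.0265), and 0.30 points for TAATCC (Fisher adjusted p = 0.234).

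Either CAGATG or CAGCTG was found in 3491 Neurod1 windows (73.6%), against 34.0% of the windows of Otx2 peaks without Neurod1. At least 2 copies of CAGATG were found in 14.5% of Neurod1 windows and in 2.37% of those Otx2 windows. Of the 10 possible E-box cores, CAGATG and CAGCTG were the 2 most enriched over the windows 1 kb away, at 2.30 and 2.51 times. CACGTG followed at 1.32 times and CATATG at 1.26 times. CACCTG was at 1.04 times and CAACTG at 1.00 times, and the other 4 words of the form CANNTG lay between 0.83 and 0.86 times.

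CAGATG was less frequent at promoters, where 91.7% of the peaks overlapped Otx2, than elsewhere. It was found in 37.6% of the windows of promoter peaks (interval 35.0% to 40.2%) and in 58.1% of those of other peaks (interval 56.5% to 59.8%). By mark, the share was 33.9% at H3K4me3, 57.0% in the H3K27ac class, 62.2% with H3K4me1 alone, and 52.1% outside the marks. The 849 Neurod1 peaks without an Otx2 peak had CAGATG in 64.0% (interval 60.7% to 67.1%) and TAATCC in 6.95% (interval 5.43% to 8.86%). The 3895 with an Otx2 peak had CAGATG in 49.8% (interval 48.2% to 51.3%) and TAATCC in 15.8% (interval 14.7% to 17.0%). The intervals of these groups do not overlap for either word. Of the peaks at H3K4me3, where CAGATG was least frequent, 97.8% overlapped Otx2, so the groups also differ in marks. Within the H3K27ac class, CAGATG was in 55.3% of the 1656 peaks with Otx2 (interval 52.9% to 57.7%). It was in 68.0% of the 247 without (interval 62.0% to 73.5%). TAATCC was in 18.9% and 6.48% of these. Among peaks without H3K4me3 the CAGATG share was 58.6%, and its difference from the Otx2 regions was 32.6 points.

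The word was not at the summit but beside it. Copies of CAGATG within 25 bp of a summit were 0.96 times as dense as at 500 to 1000 bp, rose to 4.12 times at 125 to 150 bp, and were back to 1.38 times at 225 to 250 bp. In all, 9.53% of peaks had a copy within 50 bp of the summit. CAGCTG followed the same course, with 1.10 times within 25 bp and 4.12 times at 125 to 150 bp. The offset was not limited to E-box words, as TAATCC was at 0.61 times within 25 bp and 2.15 times at 150 to 175 bp. In the 2505 peaks at least 400 bp wide, CAGATG was densest at the middle of the peak, at 4.64 times within 25 bp of it, while it was 0.99 times within 25 bp of the summit and 4.78 times at 125 to 150 bp from the summit. In the 2239 narrower peaks it was 2.06 times within 25 bp of the middle and 3.29 times at 125 to 150 bp from it. The 400 bp division was chosen after the profiles were seen.

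**Figure D2:**
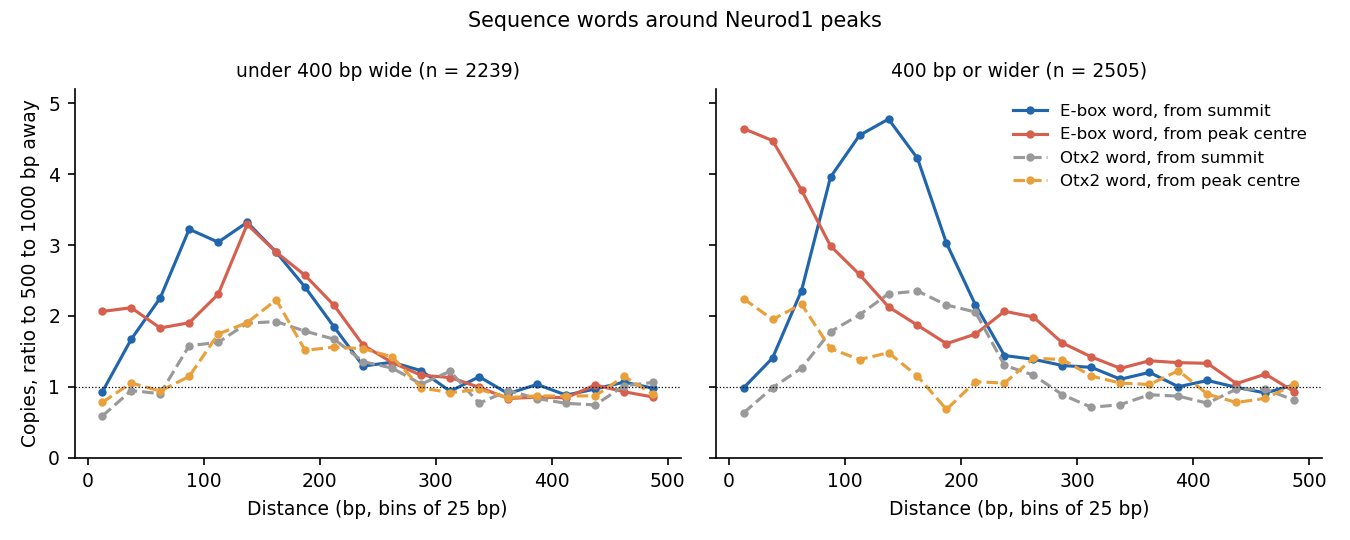
Density of CAGATG (E-box word, solid lines) and TAATCC (Otx2 word, dashed lines) against distance in bp from the summit or the peak centre, in bins of 25 bp, as a ratio to the density at 500 to 1000 bp, for Neurod1 peaks under 400 bp wide (left) and 400 bp or wider (right). In the wider peaks the E-box word peaks at 4.64 times at the centre and at 4.78 times 125 to 150 bp from the summit.

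With rising fold, more peaks carried CAGATG and H3K27ac and fewer were at promoters, and overlap with Otx2 was highest in the strongest peaks. With the peaks in 5 equal groups from lowest to highest fold, promoter summits fell from 41.5% (interval 38.4% to 44.7%) to 18.8% (interval 16.4% to 21.3%). The class with H3K27ac and no H3K4me3 went from 26.1% (interval 23.4% to 29.0%) to 59.7% (interval 56.5% to 62.8%). CAGATG near the summit went from 40.9% (interval 37.8% to 44.0%) to 65.3% (interval 62.2% to 68.3%). Overlap with Otx2 was 79.2% in the lowest group, 75.3% in the next, and 94.3% in the highest. Median width went from 315 bp to 717 bp along the same order, and its part in the overlap shares was not tested.

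**Figure D3:**
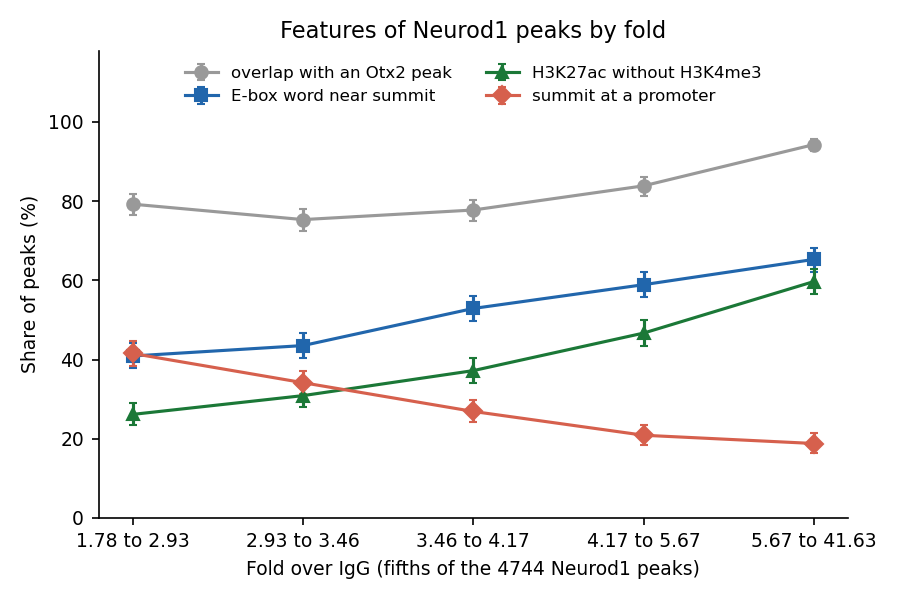
Share of Neurod1 peaks (percent) with an Otx2 peak, with CAGATG within 150 bp of the summit, with H3K27ac and no H3K4me3, and with the summit at a promoter, against the fold over IgG in 5 groups of 949 or 948 peaks; bars are 95% Wilson intervals. Promoter share fell from 41.5% to 18.8% while the other shares ended higher, at 94.3%, 65.3%, and 59.7%.

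None of the 25 peaks of highest fold (20.4 to 41.6) had its summit within 1 kb of a start, against 28.4% of all peaks. Their summits lay in introns (15), between genes (9), and in a 3′ UTR (1). Those nearest *Rbp3* and *Poc1b* were 1357 and 1332 bp from the start, within the 2 kb alternative for a promoter. All but 1 of the 25 overlapped Otx2, H3K27ac, and H3K4me1, and 4 overlapped H3K4me3. Over all Neurod1 peaks these shares were 82.1%, 52.3%, 85.2%, and 25.6%. CAGATG was found in each of the 25 peaks, with a median of 4 copies in a median width of 1145 bp, and within 150 bp of the summit in 19. Over all Neurod1 peaks, of median width 418 bp, it was anywhere in the peak in 58.2% and within 150 bp in 52.3%. The part of width in these counts was not tested. The next peak below the 25 had a fold of 20.3.

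The highest fold, 41.6, was at chr19:48755159-48755812 in an intron of *Sorcs3*, which encodes a neuronal sorting receptor, 51340 bp from its start. Its Otx2 fold was 37.2. The second, 36.8, was at chr14:24578289-24579228 between genes, 87700 bp from the start of the ribosomal protein gene *Rps24*, with an Otx2 fold of 14.4. It had the highest −log10 q-value, 556. A peak of 32.7-fold at chr13:54322156-54324415 lay in an intron of *Gm48622*, 48661 bp upstream of the start of *Cplx2*, which encodes a complexin of the synaptic release machinery. *Bcl2l1*, which encodes the survival protein Bcl-xL, had an intronic peak of 32.6-fold at chr2:152804167-152805465. The peak between genes nearest *Tmx1*, a thioredoxin-related membrane protein gene, reached 31.2-fold at chr12:70422156-70423298.

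Several of the other leading peaks were at genes of photoreceptors or neurons. *Cerkl*, a retinal degeneration gene, had an intronic peak of 27.4-fold at chr2:79399078-79400248, where the Otx2 fold was 40.5. *Rbp3*, for the retinoid-binding protein of the interphotoreceptor matrix, had a peak of 21.3-fold 1357 bp from its start at chr14:33952280-33953145. *Poc1b*, a centriolar gene linked to cone dystrophy, had one of 20.4-fold in an intron, 1332 bp from its start. *Nbea* (neurobeachin, synaptic membrane trafficking), *Kcnd3* (an A-type potassium channel), and *Dscam* (a cell adhesion molecule that spaces retinal neurites) had intronic peaks of 28.6-, 24.4-, and 20.5-fold. *Mycn*, a progenitor growth regulator, had 20.9-fold in an intron. Pairing a peak with the nearest start is a matter of position and does not show which gene it acts on. The start nearest the 28.1-fold peak at chr8:84813997-84815708 was *Dand5*, for a secreted Nodal antagonist, at 8044 bp, but *Nfix*, a nuclear factor of late progenitors, was 14435 bp away.

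**Figure D4:**
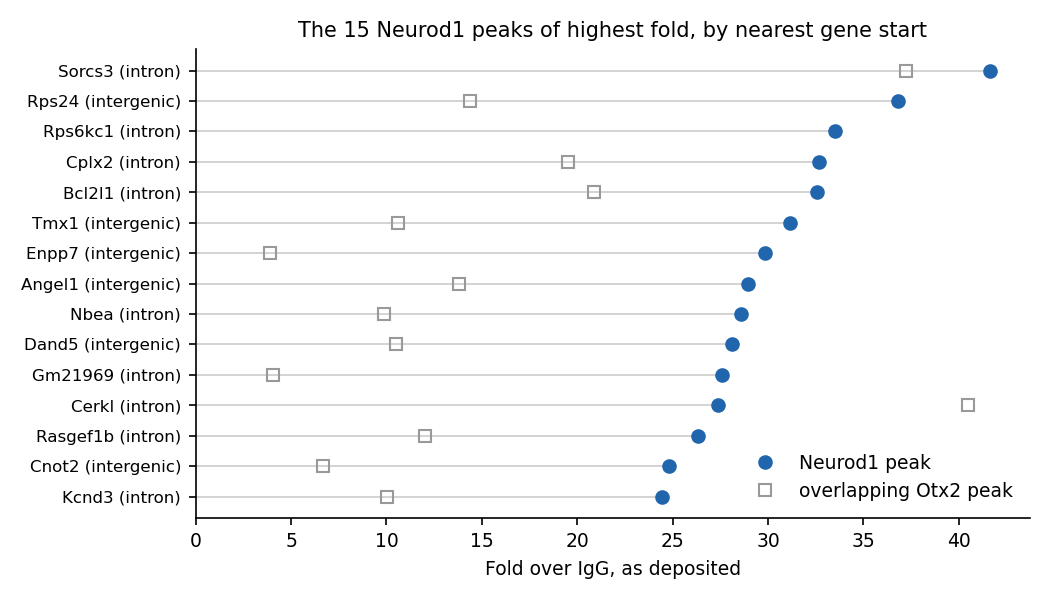
Fold over IgG, as deposited, of the 15 Neurod1 peaks of highest fold (circles) and of the highest Otx2 peak overlapping each (squares), named by nearest protein-coding start, with the position class of the summit, whose intron can belong to another gene. The Neurod1 and Otx2 lists were scaled separately. Only the *Rps6kc1* peak, at 33.5-fold, has no Otx2 square.

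The exception among the leading peaks was the third, 33.5-fold, at chr1:190871921-190872988 in an intron of *Rps6kc1*, a gene for a ribosomal S6 kinase-like protein. It overlapped no Otx2 peak and no histone mark and held 26 copies of CAGATG in 1068 bp, in the tandem repeat printed above. Soft-masked repeat made up 63.8% of the 301 bp around its summit, against a median of 6.98% over all peaks. The part of the repeat in its fold was not tested. Only 4 peaks held 10 or more copies. The others were in an intron of *Mid1* (20 copies, 11.7-fold, 79.7% masked), between genes near *Slc4a5* (15 copies, 12.2-fold), and in an intron of *Pcdh15*, an Usher syndrome cadherin gene (14 copies, 13.6-fold). None of the *Rps6kc1*, *Mid1*, and *Pcdh15* peaks overlapped Otx2, while the *Slc4a5* peak did.

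By the nearest start within 100 kb, 2851 of 21911 protein-coding genes (13.0%) had a Neurod1 peak. Of the 12274 genes with H3K4me3 within 1 kb of a start, 18.7% had one, and 4.97% of all genes had a summit within 1 kb of a start. A single peak was assigned to 2090 genes, 2 peaks to 480, and 3 or more to 281, while 545 peaks were too far from any start. An Otx2 peak was assigned in the same way to 56.6% of genes. The lists of genes that follow were chosen with earlier results of these data known, so their counts are descriptions beside the 13.0% over all genes.

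Among genes for neurogenic bHLH factors and neuronal commitment, 13 of 16 had a peak (81.3%, interval 57.0% to 93.4%). *Btg2*, an antiproliferative gene of cells in their last division, had 7 peaks from 4.01- to 15.7-fold. *Gadd45g*, a growth arrest gene, had 7 peaks up to 7.57-fold. *Neurod4*, a bHLH factor of bipolar and amacrine cells, had 3 peaks up to 6.91-fold, *Myt1*, a neuronal zinc finger gene, 5 peaks up to 6.81-fold, and *Hes6*, an inhibitor of Hes1, 1 promoter peak of 6.46-fold. *Atoh7*, needed for ganglion cells, had 1 peak of 6.29-fold, 1339 bp from its start. *Neurog2*, a progenitor bHLH gene, and *Bhlhe23* were among the 3 members without a peak.

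Of the photoreceptor transcription factor genes, 11 of 16 had a peak (68.8%, interval 44.4% to 85.8%). With a −log10 q-value of at least 5, the count was 10 of 16 in both of these lists, while 9.88% of all genes had such a peak. *Otx2* itself had 6 peaks, the highest of 16.9-fold at chr14:48608359-48609445, 52961 bp from its start. *Casz1*, a regulator of rod and cone fate, had 11 peaks up to 12.6-fold, 9 of them with H3K27ac and no H3K4me3. *Mef2d*, a photoreceptor MADS-box factor, had 7 peaks up to 6.82-fold, and *Thrb*, the thyroid hormone receptor of cones, 1 intronic peak of 7.03-fold. *Prdm1*, which blocks bipolar fate, had 4 peaks up to 6.44-fold, and *Nr2e3*, the rod repressor of cone genes, 2 peaks up to 5.80-fold. *Nrl*, the rod determinant, reached 4.59-fold and *Crx* 3.90-fold. No peak was assigned to *Rxrg*, *Mef2c*, *Esrrb*, *Samd7*, or *Samd11*.

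In the Notch pathway, 10 of 20 genes had a peak (50%, interval 29.9% to 70.1%), among them 3 of the ligands. *Dll1* had the highest fold, 19.2, at chr17:15342922-15343788 between genes. *Dll3* had a promoter peak of 6.98-fold 54 bp from its start and *Dll4* 3 peaks up to 4.82-fold. *Mfng*, a glycosyltransferase that modifies Notch, had 5 peaks up to 9.66-fold and *Lfng* 3 peaks up to 4.07-fold. *Notch1* had 5 peaks up to 6.13-fold. Among the effectors, *Hey1* reached 8.63-fold and *Hes5* 2.73-fold, while *Hes1*, *Rbpj*, and *Maml1* had none.

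The lists of photoreceptor function had shares of 33.3% to 56.3%, with intervals that overlap that of the photoreceptor factors. Rod phototransduction and outer segment genes had 8 of 22 (36.4%, interval 19.7% to 57.0%), with *Gnb1* at 7.27-fold and the *Sag* (rod arrestin) promoter at 5.73-fold the highest. *Gnat1*, *Pde6a*, and *Pde6b* had none. With a −log10 q-value of at least 5 the count was 4, while 9.88% of all genes had such a peak. Cone phototransduction genes had 4 of 12 (33.3%, interval 13.8% to 60.9%). The highest was the *Gnb3* (cone transducin beta) promoter at 17.6-fold, 452 bp from its start. The other members with a peak were *Slc24a2* (6.82-fold), *Gngt2* (4.14-fold), and *Pde6c* (3.07-fold), while the opsins *Opn1sw* and *Opn1mw* had none. Photoreceptor synapse genes had 9 of 16 (56.3%), with *Cplx4*, a ribbon synapse complexin, at 8.80-fold, *Pclo* at 5.82-fold, and the *Cacna2d4* promoter at 5.55-fold.

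The lists of other retinal cells had shares of 33.3% to 47.6%. Amacrine, horizontal, and ganglion cell genes had 10 of 21 (47.6%), the highest at *Foxn4* (6.995-fold) and *Onecut1* (6.38-fold), both early cell-fate factors. Bipolar genes had 5 of 15 (33.3%, interval 15.2% to 58.3%), with *Neurod4* and then *Prdm8* (5.54-fold) the highest. Progenitor and Müller glia genes had 8 of 22 (36.4%), none above 3.95-fold. The count was 2 of 22 when the start had to be within 20 kb, a rule met by 10.3% of all genes. *Pax6*, *Six3*, *Lhx2*, *Sox2*, and *Sox9* had a peak and *Rax*, *Hes1*, and *Ccnd1* had none.

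The lists of other tissues were near the background. Their intervals overlap those of the cone and bipolar lists, which include the 18.7% over genes with H3K4me3 at a start. Pancreatic endocrine genes, which Neurod1 regulates in islets, had 2 of 12 (16.7%, interval 4.70% to 44.8%), among them *Kcnj11* at 3.07-fold, and *Ins1* and *Ins2* had none. The list labelled non-retinal tissue markers, genes of cells other than retinal neurons and glia, had 3 of 18 (16.7%). These were *Pecam1* of endothelium, which whole retina can contain, at 7.60-fold, *Col1a1* at 4.01-fold, and *Myog* at 2.91-fold. Ribosomal protein genes had 2 of 16 (12.5%), *Rpl10a* and the distant *Rps24* peak described above. As a check of the tissue, H3K4me3 lay at a start of 12274 of all 21911 genes and of 1 of 18 members of the list labelled non-retinal. It lay at a start of 20 of 22 progenitor and Müller glia genes, 15 of 16 photoreceptor factor genes, 14 of 22 rod genes, 6 of 12 cone genes, 7 of 15 bipolar genes, and 16 of 16 ribosomal protein genes.

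**Figure D5:**
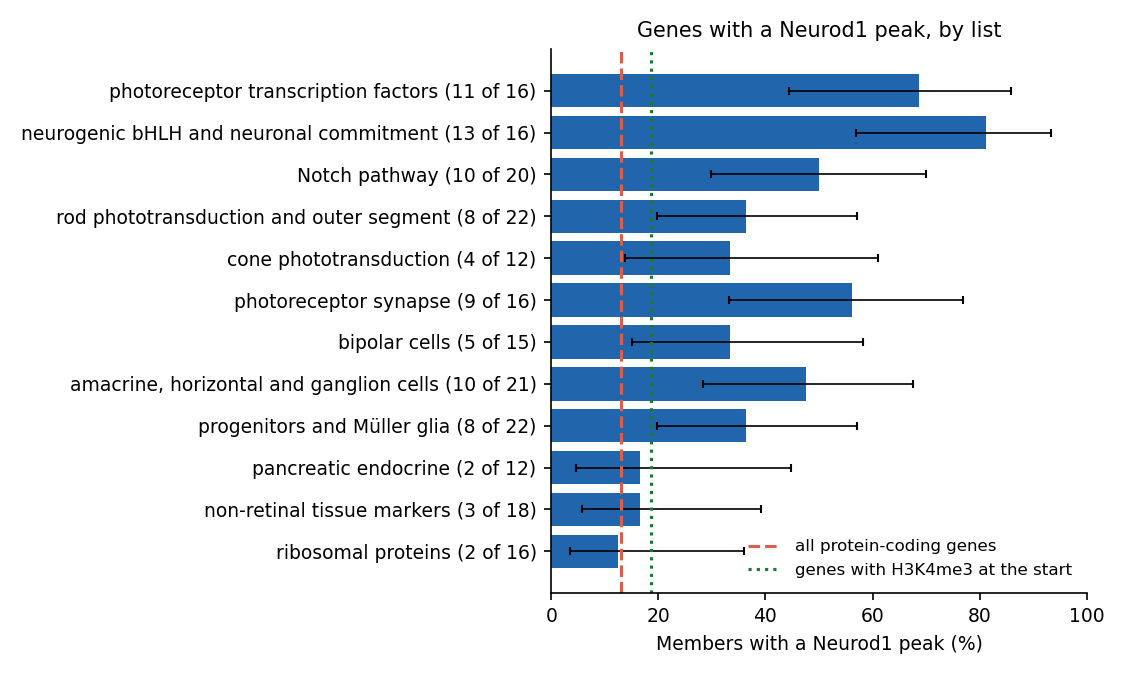
Share (percent) of the members of 12 gene lists with a Neurod1 peak assigned by the nearest start within 100 kb, with 95% Wilson intervals and the counts in brackets. The dashed line is the share over all protein-coding genes (13.0%) and the dotted line that over genes with H3K4me3 at a start (18.7%); the first 2 lists reach 68.8% and 81.3%.

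Peaks gathered at a few loci. *Gse1*, a gene for a coiled-coil protein of a histone demethylase complex, had 38 assigned peaks. Among the other genes with most peaks, *Casz1* and the Groucho corepressor gene *Tle3* had 11 each and *Igsf21* had 9. *Chd7*, *Rbfox3*, *Sipa1l3*, and *Zmiz1* had 8 each, and *Btg2* and 9 other genes had 7. Across the *Gse1* gene body at chr8:120228456-120581390 there were 39 peaks from 2.17- to 16.4-fold (median 4.403), or 11.1 per 100 kb against 0.180 over the assembled chromosomes. Of these, 37 overlapped Otx2, 38 overlapped H3K4me1, 18 overlapped H3K27ac, 5 were at promoters, and 22 had CAGATG near the summit. The gene body held 53 Otx2 peaks.

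The *Neurod1* locus carried 8 Neurod1 peaks within 100 kb of the start of the gene, each of them shared with Otx2. The promoter peak at chr2:79456617-79457539 had a fold of 11.1, with its summit 362 bp upstream of the start, and by the nearest-start rule it was counted to the neighbouring gene *Cerkl*. The peak counted to *Neurod1* was one of 2.95-fold, 5697 bp from its start, and the highest of the locus was the 27.4-fold *Cerkl* intron peak, 57133 bp from the *Neurod1* start. All of the peaks other than the one counted to *Neurod1* overlapped H3K27ac.

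By chromosome, the autosomes carried 0.96 (chromosome 3) to 3.71 (chromosome 11) Neurod1 peaks per Mb. The X chromosome had 46 peaks, or 0.27 per Mb, and the Y chromosome none. For Otx2 the autosomes had 9.20 to 17.9 peaks per Mb and the X chromosome 3.28.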

How the data were processed

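Nuclei from P2 mouse retina were profiled by CUT&RUN with paired-end sequencing. According to the study's methods and the submitters' processing notes, the authors trimmed reads (cutadapt 3.5, Trim Galore 0.6.4), aligned them to GRCm38 with Bowtie2, removed reads with a MAPQ of 30 or below (SAMtools 1.12) and duplicates, pooled the technical replicates, and ran MACS2 once per target on all its libraries, with IgG as control and a q-value limit of 0.05. Removal of low-MAPQ reads limits what can be seen in repeats. Fold enrichment values are used as deposited by the authors, a ratio of pooled signal over the control, and so is the deposited −log10 q-value. Neither was rescaled. Pooled calling left no spread between replicates, and depth is unknown.

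Summits were classed in the order promoter (1 kb), 5′ UTR, coding exon, 3′ UTR, non-coding exon, intron, intergenic, with GENCODE M21. Genome shares came from 255933 positions spaced 10 kb apart. Peaks were assigned to the nearest protein-coding start within 100 kb. Overlap meant 1 bp shared. Sequences were read from the RefSeq GRCm38.p6 genome, and promoter sequences were RefSeq's. Shares of Neurod1 peaks and of Otx2 peaks without Neurod1 were set against each other with Fisher's exact test (two-sided), and the 11 p-values were adjusted by the Benjamini-Hochberg method. Genes were named as the nearest to the 25 peaks of highest fold, the 10 with most peaks (ties by symbol), and members of 12 lists with the highest folds, at least 4 where a list had them. Some of these genes are not reported here. Further members and peaks were named after their values were seen. The peaks, lists, and tests were chosen with earlier results of these data known. Work was done in Python 3.11.15 (numpy 2.4.6, pandas 2.3.3, scipy 1.17.1, matplotlib 3.10.9), and the overlap code was tested on simulated data against bedtools 2.31.1, with 0 differences. Alternatives covered the q-value, overlap, promoter distance, annotation, motif window, and gene assignment.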

Additional observations from a re-analysis of the deposited data

How the results depend on the processing

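Of 57 recomputed differences between Neurod1 and Otx2-only regions, 52 kept their direction and side of the threshold. With a −log10 q-value of at least 5, shares were 26.6% at promoters, 78.4% with Otx2, 22.04% at H3K4me3, 36.4% with H3K27ac and no H3K4me3, 35.4% with H3K4me1 alone, and 56.1% with CAGATG. With the summit required inside the other peak, Otx2 was 79.9% and the 4 mark classes were 23.7%, 37.0%, 32.3%, and 7.04% (outside). With 250 bp of overlap they were 62.1%, 17.9%, 30.6%, 24.8%, and 26.7%, and the difference outside the marks reversed to 4.75 points (adjusted p by Fisher's exact test 2.37e-12). Peaks narrower than 250 bp cannot meet that rule, so no conclusion is drawn from the reversal. Promoter, intron, and intergenic shares were 35.7%, 35.9%, and 25.7% with promoters of 2 kb, and 24.5%, 37.9%, and 34.3% with protein-coding transcripts. CAGATG was in 58.2% anywhere in the peak and 9.53% within 50 bp, where the TAATCC difference reversed to 0.30 points.

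Settings added after seeing the data were peaks without H3K4me3 and peaks outside *Gse1*. Without H3K4me3, position shares were 11.2%, 50.4%, and 34.2%, Otx2 76.7%, mark classes 53.9%, 38.6%, and 7.45%, and CAGATG 58.6%. The intergenic and H3K4me1-alone differences reversed to -4.88 and -11.2 points (adjusted p by Fisher's exact test 1.12e-07 and 1.73e-32). Without *Gse1* the latter was 1.31 points (Fisher's exact adjusted p 0.067). The cause was not tested. Among gene lists, a −log10 q-value of at least 5 gave 4 rod, 5 progenitor and Müller, and 1 pancreatic gene. Progenitor and Müller genes numbered 2 within 20 kb and 3 by gene body. Over all protein-coding genes the shares were 9.88% with this q-value, 10.3% within 20 kb, and 15.2% by gene body. All other lists stayed within 1.5 times. No paired analysis was possible because each target has 1 pooled list, and for the same reason no replicate could be left out. Regions of low fold lie nearest the calling threshold, and what depth would add there is unknown.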

Other observations

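Around the E-box, some longer words had a higher ratio to distant windows than the core, which was at 2.30 times. Among all words of 8 bases present in at least 95 Neurod1 windows (150 bp to each side of the summit), the highest ratio to windows 1 kb away was that of CAGATGGC, found in 15.3% of Neurod1 windows, 1.73% of the distant windows (8.87 times), and 1.997% of windows at Otx2 peaks without Neurod1. CCATCTGC, whose reverse complement is GCAGATGG, was in 12.8% against 2.03% (6.27 times). CCAGATGG was in 10.3% against 1.71% (6.02 times), and AACAGATG in 6.81% against 1.18% (5.77 times). The leading word with the other preferred core was CAGCTGTC, in 9.46% against 2.003% (4.73 times). These words overlap each other and were ranked on the windows in which they are counted, so the values are descriptions.

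Of the 263 Neurod1 peaks outside the 3 histone marks, 187 also had no Otx2 peak. After the *Rps6kc1* repeat, the highest folds among them were 12.2 at chr11:99985240-99986631 near *Krtap16-1*, a keratin-associated protein gene, with 6 copies of CAGATG, 10.5 in an intron of *Pkib*, 10.1 in an intron of *Snx29*, and 8.40 in an intron of *Scamp1*, with 6 copies.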
